A study of Mus musculus with 13 samples.

Results

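The p53 family and target genes were 10 genes chosen by symbol: the transcription factor genes Trp53 and Trp63, the p53 ubiquitin ligase gene Mdm2, the cell cycle genes Cdkn1a and Ccng1, the cell death genes Bax, Bbc3, Pmaip1 and Perp, and the stress response gene Sesn2. All 10 had a row among the 23235 gene symbols of the table. Mouse oocytes were split by micromanipulation into nucleus and cytoplasm, and the polyadenylated RNA of each was sequenced from 10 nuclei or 10 cytoplasms per library by Smart-seq2, which starts from very little RNA and primes on the poly(A) tail. The groups were MTR4-null nuclei and MTR4-null cytoplasms at day 21 (2 libraries each), WT nuclei at day 14 (2 libraries) and day 21 (3 libraries), and WT cytoplasms at day 14 and day 21 (2 libraries each). MTR4 is the RNA helicase that hands nuclear RNA to the exosome for degradation. The means of inactivating the gene, and the Cre or allele if any, are not given in the labels.

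The table held 1 column for each genotype and compartment and none for a single library. No spread between libraries could therefore be computed, and no p-value, standard deviation or test stands behind any difference below. The WT columns name no day, so genotype and age cannot be told apart in any comparison of MTR4-null with WT oocytes. The values are named FPKM, a count of fragments scaled by transcript length and sequencing depth, so levels of different genes are compared per length. Their column totals were 1396110 in the MTR4-null nucleus, 594034 in the WT nucleus, 3007240 in the MTR4-null cytoplasm and 6637350 in the WT cytoplasm, and read depth is unknown. A divisor was therefore taken for each column, the median over genes of its value against the geometric mean of the 4 columns. Values after that division are called relative. This scale takes the typical gene as equal in all columns, so a difference shared by most genes does not show on it. A difference was counted when it reached 2-fold on the relative log2 scale after 1 had been added. Skiv2l2, the gene that encodes MTR4, had deposited values of 3.54 in the MTR4-null nucleus and 13.3 in the WT nucleus, and of 4.36 in the MTR4-null cytoplasm and 187 in the WT cytoplasm. All 12 oocyte marker genes examined were detected in all 4 columns, the lowest of their deposited values being 25.6.

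In textbook terms, p53 is a transcription factor that is kept scarce by MDM2, which marks it for degradation. On DNA damage the kinases ATM, ATR, CHEK1 and CHEK2 act on p53, which then activates genes of cell cycle arrest, repair and cell death, and Mdm2 itself, so that the response limits itself. In mouse oocytes the related factor p63, in its TA form, guards the resting follicle pool and drives death of damaged oocytes through Bbc3 (PUMA) and Pmaip1 (NOXA). The table gives a single value per gene, so it does not tell the TA form of Trp63 from other forms, and RNA values do not measure p53 protein, which is mainly controlled through its stability.

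Promoter windows from RefSeq (build GRCm38.p6, 250 bases before to 50 after a start site) matched 7 of the 10 genes, in 10 windows; Trp63, Pmaip1 and Perp had no entry. They were searched for the p53 response-element decamer, whose consensus is its own reverse complement, so both strands were read at once. A match was found in 5 of the 10 windows, of Trp53, Mdm2, Ccng1, Cdkn1a and Bax. Over all 32851 windows of this length 8.36% held a match, and no test was made of the members against this share. The windows of Trp53, Mdm2 and Ccng1 are shown because their relative values differed in opposite directions in MTR4-null oocytes (Trp53 and Mdm2 lower, Ccng1 higher). That of Cdkn1a is shown because the gene is the textbook p53 target. The differences of Trp53 and Mdm2 lay below 2-fold, and their nuclear ones were positive as deposited. All 4 windows shown hold a match, and those of Bax, Bbc3 and Sesn2 and the second of Cdkn1a are not printed. Capitals mark the matched decamer, each sequence runs 5′ to 3′ on the gene's strand, and each window covers upstream sequence and the start of the first exon.
Trp53 (chr11:69580109-69580408, + strand): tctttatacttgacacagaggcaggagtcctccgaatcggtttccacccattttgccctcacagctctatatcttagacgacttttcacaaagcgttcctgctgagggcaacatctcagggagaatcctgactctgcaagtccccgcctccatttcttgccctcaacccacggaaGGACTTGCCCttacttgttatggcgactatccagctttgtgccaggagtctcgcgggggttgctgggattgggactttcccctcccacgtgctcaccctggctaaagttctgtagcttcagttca
Mdm2 (chr10:117710709-117711008, - strand): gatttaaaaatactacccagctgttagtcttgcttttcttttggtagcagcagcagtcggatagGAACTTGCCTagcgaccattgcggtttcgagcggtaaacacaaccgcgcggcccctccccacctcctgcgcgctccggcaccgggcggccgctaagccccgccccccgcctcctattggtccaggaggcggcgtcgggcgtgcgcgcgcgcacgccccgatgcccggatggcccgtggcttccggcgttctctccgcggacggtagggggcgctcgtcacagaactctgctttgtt
Ccng1 (chr11:40755237-40755536, - strand): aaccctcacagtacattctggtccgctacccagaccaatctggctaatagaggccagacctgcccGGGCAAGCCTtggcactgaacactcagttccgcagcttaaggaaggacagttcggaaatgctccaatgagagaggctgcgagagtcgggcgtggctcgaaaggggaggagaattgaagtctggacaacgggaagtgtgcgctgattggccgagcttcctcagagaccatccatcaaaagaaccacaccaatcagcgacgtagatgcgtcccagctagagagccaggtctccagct
Cdkn1a (chr17:29090729-29091028, + strand): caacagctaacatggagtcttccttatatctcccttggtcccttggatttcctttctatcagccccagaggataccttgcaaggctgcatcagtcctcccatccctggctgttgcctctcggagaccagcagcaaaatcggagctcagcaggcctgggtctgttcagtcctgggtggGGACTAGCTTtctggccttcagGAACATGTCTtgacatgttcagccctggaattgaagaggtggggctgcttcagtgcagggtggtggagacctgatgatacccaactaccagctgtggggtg
The matches began 75 bases before the start site in Trp53, 186 in Mdm2, 185 in Ccng1, 201 in Bax, and 73 and 51 in Cdkn1a. As background, the p53-responsive promoter of mouse Mdm2 lies in its first intron and so outside the window shown. The second Cdkn1a window and the windows of Bbc3 and Sesn2 held no match, which says only that these letters are not in those windows.

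Trp53, which encodes p53, had deposited values of 29.0 in the MTR4-null nucleus and 20.9 in the WT nucleus, and 139.6 in the MTR4-null cytoplasm and 398 in the WT cytoplasm. On the relative scale it was lower in MTR4-null oocytes in both compartments, with 48.7 in MTR4-null and 75.0 in WT nuclei and 75.5 in MTR4-null and 115 in WT cytoplasms. The relative log2 differences were -0.61 in the nucleus and -0.60 in the cytoplasm, neither of which reached 2-fold, and the nuclear difference was positive as deposited (0.45), where the median of all kept genes was 0.91. Ranked among the 14240 genes kept after a filter on low values, Trp53 lay at percentile 67.6 in the MTR4-null nucleus and 75.2 in the WT nucleus, and 76.3 in the MTR4-null cytoplasm and 81.2 in the WT cytoplasm. Reads of the processed pseudogene Trp53-ps can be shared with Trp53, so these values are uncertain to that extent.

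Trp63, the gene of p63, had deposited values of 10.2 in the MTR4-null nucleus and 4.56 in the WT nucleus, and 60.7 in the MTR4-null cytoplasm and 64.3 in the WT cytoplasm. Its relative value was nearly equal in the nuclei, with 17.1 in MTR4-null and 16.4 in WT nuclei. In the cytoplasm the relative values were further apart, with 32.8 in MTR4-null and 18.6 in WT cytoplasms, a log2 difference of 0.79 that lay below 2-fold. The sign of that cytoplasmic difference turned as deposited (-0.083, with a median of -0.79 over all kept genes).

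Mdm2 had the highest value of the members in both WT columns. As deposited it had 46.7 in the MTR4-null nucleus and 38.2 in the WT nucleus, and 176 in the MTR4-null cytoplasm and 489.6 in the WT cytoplasm. Relative values were 78.5 in MTR4-null and 137 in WT nuclei, and 95.4 in MTR4-null and 141 in WT cytoplasms. The relative log2 differences, -0.80 in the nucleus and -0.56 in the cytoplasm, had the sign of those of Trp53 and also lay below 2-fold, and the nuclear one was 0.28 as deposited.

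Among the cell cycle genes, Ccng1 differed more than Cdkn1a. Cyclin G1, its product, is encoded by a p53 target and binds a phosphatase that acts on MDM2. Deposited values were 4.39 in the MTR4-null nucleus and 0.524 in the WT nucleus, and 28.9 in the MTR4-null cytoplasm and 16.4 in the WT cytoplasm. Ccng1 was thus higher in both MTR4-null columns, also as deposited. The relative log2 difference of Ccng1 came to 1.54 for nuclei, at percentile 83.3 of all kept genes, and to 1.54 for cytoplasms, at percentile 85.1. Without the rescaling these differences were 1.82 for nuclei and 0.78 for cytoplasms, and the cytoplasmic one then lay below 2-fold. Ccng1 was below 1 in the WT nucleus and so passed the filter through its other columns.

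Cdkn1a encodes p21, the inhibitor of cyclin-dependent kinases through which p53 halts the cell cycle. Its deposited values were low, at 2.39 in the MTR4-null nucleus and 0.705 in the WT nucleus, and 3.40 in the MTR4-null cytoplasm and 8.23 in the WT cytoplasm. The relative log2 difference of Cdkn1a was 0.51 for nuclei and -0.25 for cytoplasms, both below 2-fold. Its percentile among kept genes was 19.2 in the MTR4-null nucleus and 19.5 in the WT nucleus, and 13.2 in the MTR4-null cytoplasm and 21.2 in the WT cytoplasm.

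Bax encodes the protein that opens the outer mitochondrial membrane in apoptosis, and it lay above percentile 80.0 of the kept genes in every column. Deposited values were 69.0 in the MTR4-null nucleus and 32.8 in the WT nucleus, and 185 in the MTR4-null cytoplasm and 364 in the WT cytoplasm. Relative values lay close together, with 116 in MTR4-null and 118 in WT nuclei and 99.9 in MTR4-null and 105 in WT cytoplasms. The relative log2 differences of Bax, -0.018 for nuclei and -0.072 for cytoplasms, were the nearest to 0 among the 8 kept members on this scale, whereas as deposited they were 1.05 and -0.97. GENCODE M21 places Gm45808 on exons of Bax on the same strand, so reads of both genes can be mixed.

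Bbc3 and Pmaip1, whose products PUMA and NOXA bind survival proteins of the BCL-2 family, were near or at 0 in every column. Bbc3 had deposited values of 0.290 in the MTR4-null nucleus and 0.474 in the WT nucleus, was listed at 0 in the MTR4-null cytoplasm and had 0.184 in the WT cytoplasm. Pmaip1 had 0.210 in the MTR4-null nucleus and 0.102 in the WT nucleus, and 0.395 in the MTR4-null cytoplasm and 0.511 in the WT cytoplasm. Both stayed under 1 in all 4 columns as deposited, did not pass the filter and are not counted below, except where no filter is applied. Read depth is unknown, so no direction is read from such values.

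Perp encodes a membrane protein of cell junctions that p53 and p63 activate. As deposited it had 0.642 in the MTR4-null nucleus and 2.17 in the WT nucleus, and 7.42 in the MTR4-null cytoplasm and 14.9 in the WT cytoplasm. Relative values were 1.08 in MTR4-null and 7.79 in WT nuclei, and 4.01 in MTR4-null and 4.30 in WT cytoplasms. The nuclear log2 difference of Perp, -2.08, lay at percentile 3.86 of all kept genes and was -0.95 as deposited. The cytoplasmic one was -0.082.

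Sesn2 encodes sestrin 2, which restrains growth signalling through mTORC1 under stress. Its deposited values were 0.349 in the MTR4-null nucleus and 0.204 in the WT nucleus, and 6.12 in the MTR4-null cytoplasm and 4.69 in the WT cytoplasm. The relative values of Sesn2 were 3.31 in MTR4-null and 1.35 in WT cytoplasms, a log2 difference of 0.87 that lay below 2-fold. In nuclei they were 0.588 in MTR4-null and 0.732 in WT, a log2 difference of -0.125. Both nuclear values were below 1 as deposited, so no direction is read from them. Sesn2 passed the filter through the cytoplasm columns alone, and a gene so kept is lower in the nucleus partly by how it was chosen.

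**Figure D1:**
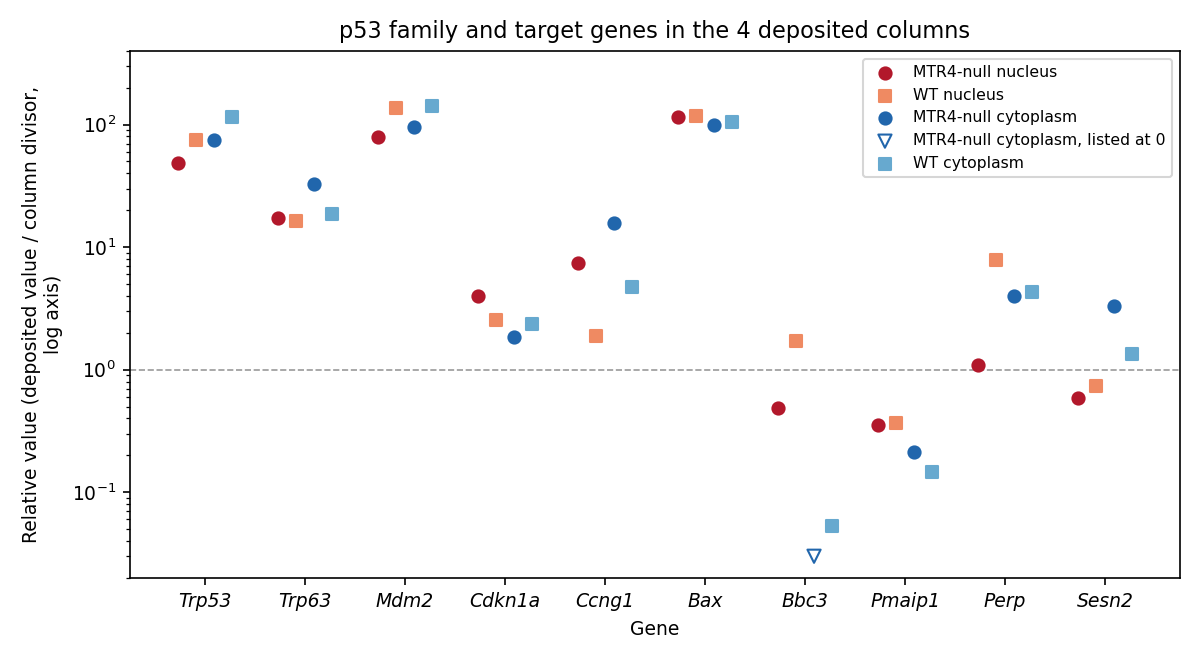
Relative value (deposited value over the column's divisor, log axis) of each of the 10 genes in the MTR4-null nucleus, WT nucleus, MTR4-null cytoplasm and WT cytoplasm; each point is 1 deposited column, and the dashed line marks 1. Trp53, Mdm2 and Bax sat highest, Bbc3 and Pmaip1 lowest, and Bbc3 was listed at 0 in the MTR4-null cytoplasm.

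Of the 8 kept members, 1 (Ccng1) was at least 2-fold higher and 1 (Perp) at least 2-fold lower in the MTR4-null nucleus than in the WT nucleus on the relative scale. Over all 14240 kept genes, 25.8% were higher and 16.2% lower. As deposited, 3 members were higher (Trp63, Ccng1 and Bax) and 0 lower in the nucleus, against 46.3% and 3.69% of all kept genes. In the MTR4-null cytoplasm 1 member (Ccng1) was higher and 0 were lower than in the WT cytoplasm, where 24.2% of all kept genes were higher and 18.6% lower. As deposited 0 were higher and 3 lower (Trp53, Mdm2 and Cdkn1a), against 14.9% and 43.7%. The median relative log2 difference of the kept members was -0.072 for nuclei and -0.077 for cytoplasms, beside 0.055 in each for all kept genes. The divisors hold that last median near 0 by construction. As deposited the medians of the members were 0.72 for nuclei and -0.95 for cytoplasms, beside 0.91 and -0.79 for all kept genes.

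**Figure D2:**
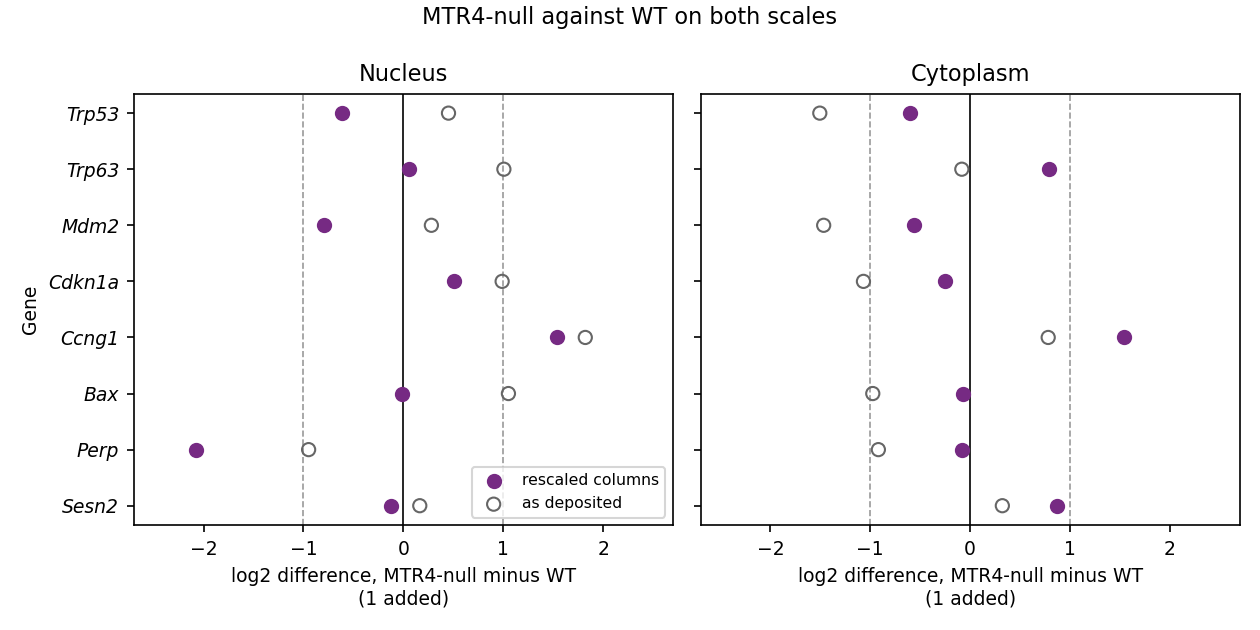
Log2 difference, MTR4-null minus WT with 1 added, of the 8 kept genes in the nucleus (left) and the cytoplasm (right), on rescaled columns (filled points) and as deposited (open points); dashed lines mark 2-fold. Ccng1 lay at 1.54 in both compartments on the rescaled columns, and Perp at -2.08 in the nucleus only.

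Within a column the scale cancels, so each member was also set against Trp53 of the same column. These ratios compare levels per length and do not depend on how the columns were scaled. They share Trp53 as denominator, which was itself lower in MTR4-null on the relative scale, so each also carries the difference of Trp53. Mdm2 stood at 1.61 times Trp53 in the MTR4-null nucleus and 1.83 times in the WT nucleus, and at 1.26 times in the MTR4-null cytoplasm and 1.23 times in the WT cytoplasm. The null over WT quotient of this ratio was 0.881 for nuclei and 1.03 for cytoplasms. Bax stood at 2.38 times Trp53 in the MTR4-null nucleus and 1.57 times in the WT nucleus, and at 1.32 times in the MTR4-null cytoplasm and 0.915 times in the WT cytoplasm. Trp63 stood at 0.351 times Trp53 in the MTR4-null nucleus and 0.218 times in the WT nucleus, and at 0.435 times in the MTR4-null cytoplasm and 0.162 times in the WT cytoplasm. In both compartments the ratio of Trp63 to Trp53 was higher in MTR4-null, at 1.61 times the WT ratio in the nucleus and 2.69 times in the cytoplasm. Set against Bax instead, Trp63 was nearly equal in the nuclei, at 0.147 times Bax in MTR4-null and 0.139 times in WT, and stood at 0.328 times Bax in the MTR4-null cytoplasm and 0.177 times in the WT cytoplasm. Ccng1 stood at 0.152 times Trp53 in the MTR4-null nucleus and 0.0251 times in the WT nucleus, and at 0.207 times in the MTR4-null cytoplasm and 0.0412 times in the WT cytoplasm. That ratio was 6.04 times the WT ratio in the nucleus and 5.03 times in the cytoplasm, the most distant from 1 in both compartments among the 7 kept genes set against Trp53. Against Bax, Ccng1 stood at 0.0636 times in the MTR4-null nucleus and 0.0160 times in the WT nucleus, and at 0.156 times in the MTR4-null cytoplasm and 0.04498 times in the WT cytoplasm. For Cdkn1a the quotient was 2.44 for nuclei and 1.18 for cytoplasms. For Bax it was 1.52 for nuclei and 1.45 for cytoplasms, and for Sesn2 1.24 for nuclei and 3.72 for cytoplasms. Both nuclear values of Sesn2 were below 1 as deposited, so no direction is read from its nuclear quotient. For Perp the quotient was 0.214 for nuclei and 1.42 for cytoplasms, on opposite sides of 1.

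**Figure D3:**
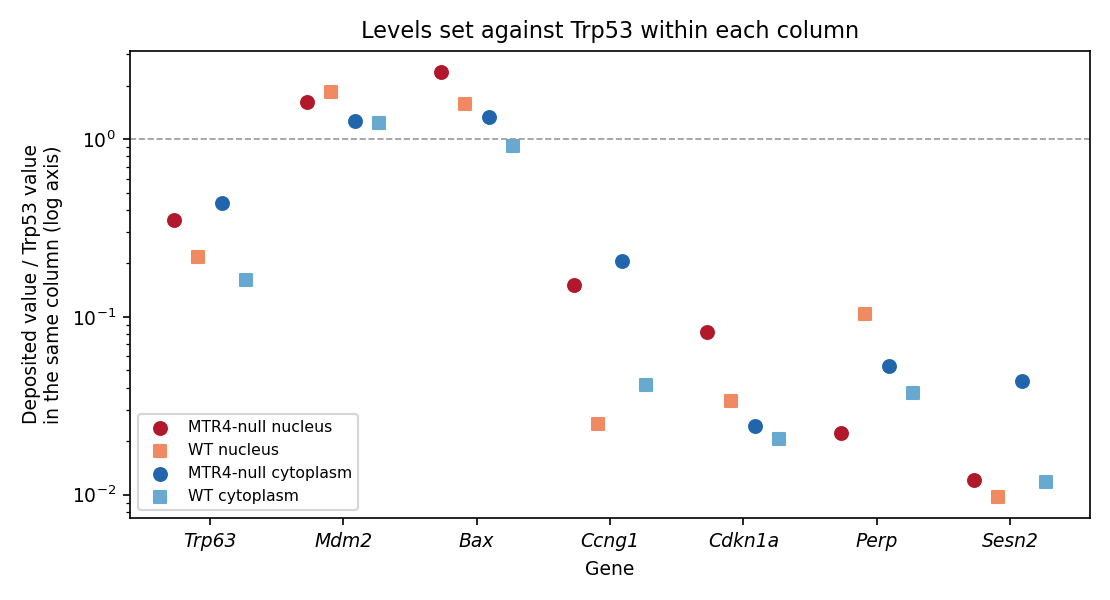
Deposited value of 7 genes divided by that of Trp53 in the same column (log axis), for the MTR4-null nucleus, WT nucleus, MTR4-null cytoplasm and WT cytoplasm; each point is 1 column. Set against Trp53, Trp63, Bax, Ccng1, Cdkn1a and Sesn2 sat higher in the MTR4-null columns of both compartments, and Perp in the cytoplasm only. Trp53 was itself lower in MTR4-null on the relative scale, and both nuclear values of Sesn2 were below 1 as deposited. Mdm2 lay between 1.23 and 1.83 throughout.

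The next comparison set the nucleus against the cytoplasm. In MTR4-null oocytes 2 of the 8 kept members, Perp and Sesn2, were at least 2-fold lower in the nucleus and 0 higher, beside 8.83% of all kept genes lower and 12.4% higher. Their relative log2 differences were -1.27 for Perp and -1.44 for Sesn2. In WT oocytes 0 members reached 2-fold in either direction, beside 9.73% of all kept genes higher in the nucleus and 7.46% lower. Ccng1 lay just inside the threshold in both genotypes, at -0.99 in MTR4-null and -0.99 in WT oocytes. Trp53 was at -0.62 in MTR4-null and -0.61 in WT oocytes. Trp63 stood at -0.90 in MTR4-null and -0.17 in WT oocytes. As deposited, 7 of the 8 kept members were at least 2-fold lower in the MTR4-null nucleus than in its cytoplasm and 0 higher, beside 71.9% and 2.91% of all kept genes. In WT oocytes as deposited, 8 were lower and 0 higher, beside 91.2% and 1.74%.

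The nucleus minus cytoplasm difference was lower in MTR4-null than in WT by at least 2-fold for 1 kept member, Perp (-1.997), and higher for 0, beside 15.3% of all kept genes lower and 16.9% higher. Sesn2 lay at the edge of the threshold with -0.998. For Trp53 (-0.013), Ccng1 (0.0036) and Bax (0.053) the value was close to 0. As deposited 6 kept members were higher and 0 lower, beside 71.7% and 3.32%, and Perp was at -0.030, so the call of Perp was lost. The comparisons of compartments use the same columns as those of genotype, so they are the same measurements set in another order.

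Each library pooled 10 nuclei or cytoplasms. For any other cells carried along with them, fewer cells and less RNA per cell cannot be told apart. Granulosa cells surround the oocyte in the follicle. Of 16 granulosa markers, 5 reached a deposited value of 1 in the MTR4-null nucleus and 3 in the WT nucleus. In the cytoplasm 15 did so in MTR4-null and 14 in WT. The columns' divisors differed, with 0.279 the smallest (WT nucleus) and 3.47 the largest (WT cytoplasm). A cutoff on deposited values is therefore strictest for the WT nucleus, and no difference between columns is read from these counts. The summed relative level of the 16 markers was 44.7 in the MTR4-null nucleus and 67.7 in the WT nucleus. In the cytoplasm it was 162 in MTR4-null and 141 in WT. Inha was the largest part of the cytoplasmic sums and was lower in MTR4-null, with relative values of 47.0 in the MTR4-null cytoplasm and 72.95 in the WT cytoplasm. Of the 14 granulosa markers that passed the filter, 5 were at least 2-fold higher and 1 lower in the MTR4-null cytoplasm. The median relative log2 difference there was 0.53. In the MTR4-null nucleus 2 were higher and 3 lower, with a median of -0.29. Over all kept genes 24.2% were higher and 18.6% lower in the cytoplasm, and 25.8% higher and 16.2% lower in the nucleus. Their median was 0.055 in each compartment. The highest of the 14 markers in the cytoplasm were Wt1 (2.81), Hsd3b1 (2.13) and Kitl (1.66). The nucleus minus cytoplasm difference was at least 2-fold lower in MTR4-null than in WT for 7 of the 14 and higher for 1. The median was -1.08. Over all kept genes 15.3% were lower and 16.9% higher in that comparison, with a median of 0.073. Inhba, Fshr, Amhr2, Cyp11a1, Hsd3b1, Wt1, Kitl and Gja1 passed the filter through the cytoplasm columns alone. Their nuclear values were below 1 as deposited, so their part in this count depends on values near the floor. For the same difference Trp53, Trp63, Mdm2, Perp and Sesn2 lay below 0, and Cdkn1a, Ccng1 and Bax above 0. Trp53 (-0.013), Ccng1 (0.0036) and Bax (0.053) were close to 0, so little rests on their sign. In the cytoplasm, MTR4-null against WT, Trp63, Ccng1 and Sesn2 had the sign of the granulosa median, and the other kept members the opposite sign. Among the latter, Bax (-0.072) and Perp (-0.082) were close to 0, and their signs turned under other scalings. Inha, Foxl2, Gja1 and Lhcgr were listed at 0 in the MTR4-null nucleus and Amh, Amhr2 and Lhcgr in the WT nucleus, and none of the 16 was at 0 in either cytoplasm. Of 6 blood and immune markers, Pecam1 had 14.01 in the MTR4-null nucleus and 10.9 in the WT nucleus, and 30.1 in the MTR4-null cytoplasm and 173 in the WT cytoplasm as deposited, while Hbb-b1 was listed at 0 in all 4. Ptprc and Emr1 were listed at 0 except in the WT cytoplasm, where they had 0.0648 and 0.0888. Hba-a1 was highest in the MTR4-null cytoplasm, at 1.36, and Cd68 in the WT cytoplasm, at 17.1. The summed relative level of the 6 was 27.4 in the MTR4-null nucleus and 43.9 in the WT nucleus, and 20.9 in the MTR4-null cytoplasm and 55.1 in the WT cytoplasm. Pecam1 made up most of each sum. Its relative values were 23.6 in MTR4-null and 39.2 in WT nuclei, and 16.3 in MTR4-null and 49.9 in WT cytoplasms. The part of such cells in the differences above was not tested.

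The rest of the pathway was read from 4 lists of regulators, targets and BCL-2 family genes, 75 genes in all, of which 61 passed the filter. In the MTR4-null nucleus 13 of the 61 were at least 2-fold higher and 10 lower than in WT on the relative scale, with a median of 0.036. As deposited 29 were higher and 0 lower there. In the MTR4-null cytoplasm 15 were higher and 3 lower, with a median of -0.040. As deposited 9 were higher and 28 lower there. The shares of all kept genes are those given above for the members, with a median of 0.055 in each compartment on the relative scale. Values of single genes below are as deposited, with the relative log2 difference in parentheses.

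Among 23 kept regulators of p53, 3 were higher and 3 lower in the MTR4-null nucleus, and 5 were higher and 1 lower in the cytoplasm. Mdm4, the partner of Mdm2 that holds p53 inactive, was lower in both compartments, also as deposited. It had 207 in the MTR4-null nucleus and 275 in the WT nucleus (-1.50), and 467 in the MTR4-null cytoplasm and 4266 in the WT cytoplasm (-2.28). Its values may include reads of the processed pseudogene Mdm4-ps. Chek1, a checkpoint kinase gene, had 127 in MTR4-null and 127 in WT nuclei (-1.10), and the ubiquitin ligase gene Rchy1 had 97.6 in MTR4-null and 102 in WT nuclei (-1.15). Chek2, the kinase that activates p63 in damaged oocytes, had 18.1 in MTR4-null and 3.76 in WT nuclei (1.12), and 21.3 in MTR4-null and 24.9 in WT cytoplasms (0.61). Trp53bp2, whose product ASPP2 steers p53 towards death genes, had 3.10 in MTR4-null and 0.117 in WT nuclei (2.13), and 20.4 in MTR4-null and 0.873 in WT cytoplasms (3.27). Trp53bp2 reached 1 in the MTR4-null columns alone and so was kept only through the group where it is high. It is among the genes counted as higher in both compartments, and that count is no support for a difference of it. Ppp1r13l, the gene of its inhibitory relative iASPP, had 6.14 in MTR4-null and 1.06 in WT nuclei (1.23). In the cytoplasm the deacetylase gene Sirt1 had 302 in MTR4-null and 109 in WT cytoplasms (2.34), and the acetyltransferase gene Ep300 had 76.1 in MTR4-null and 36.8 in WT cytoplasms (1.86).

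Among 14 kept targets of cell cycle arrest and death, 5 were higher and 4 lower in the MTR4-null nucleus, and 6 higher and 1 lower in the cytoplasm. Aen, which encodes an apoptosis-enhancing nuclease, had 37.5 in MTR4-null and 0.808 in WT nuclei (4.04). Sfn, the gene of 14-3-3 sigma, had 16.9 in MTR4-null and 1.62 in WT nuclei (2.11), and 41.9 in MTR4-null and 14.4 in WT cytoplasms (2.2). The RNA-binding protein gene Zmat3 had 5.70 in MTR4-null and 0.454 in WT nuclei (2.01). In the opposite direction, the kinase gene Plk3 had 0.266 in MTR4-null and 1.51 in WT nuclei (-2.15), and Trp53inp1 had 9.91 in MTR4-null and 12.0 in WT nuclei (-1.32). Btg2, an antiproliferative gene, was lower in both compartments, with 4.02 in MTR4-null and 5.74 in WT nuclei (-1.47) and 19.3 in MTR4-null and 89.5 in WT cytoplasms (-1.23). In the cytoplasm Ei24 had 121 in MTR4-null and 24.2 in WT cytoplasms (3.05), and the growth arrest gene Gadd45a had 36.5 in MTR4-null and 7.18 in WT cytoplasms (2.76). The death receptor gene Tnfrsf10b was higher in the nucleus than in the cytoplasm, with 64.4 in the nucleus against 8.78 in the cytoplasm of MTR4-null oocytes (4.25) and 8.84 in the nucleus against 4.26 in the cytoplasm of WT oocytes (3.88).

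Among 15 kept targets of repair and metabolism, 2 were higher and 2 lower in the MTR4-null nucleus, and 1 was higher and 0 lower in the cytoplasm. Sesn1 and Sesn3, the relatives of Sesn2, were the higher genes of the nucleus. Sesn1 had 3.67 in MTR4-null and 0.330 in WT nuclei (1.72), and Sesn3 had 17.9 in MTR4-null and 3.84 in WT nuclei (1.07). Ddit4, which encodes an inhibitor of mTORC1 signalling, had 11.1 in MTR4-null and 17.8 in WT nuclei (-1.72), and the ribonucleotide reductase gene Rrm2b had 25.1 in MTR4-null and 35.4 in WT nuclei (-1.57). The DNA damage sensor gene Xpc had 77.6 in MTR4-null and 69.8 in WT cytoplasms (1.02).

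Among 9 kept BCL-2 family genes, 3 were higher and 1 lower in each compartment. Bcl2l10 was the most abundant of those named, with 2525 in the MTR4-null nucleus and 2355 in the WT nucleus (-0.99), just inside the threshold and of the opposite sign as deposited (0.10), and 8087 in the MTR4-null cytoplasm and 35828 in the WT cytoplasm (-1.24). Mcl1, a survival gene, was higher in both compartments, with 24.3 in MTR4-null and 1.18 in WT nuclei (2.999) and 98.99 in MTR4-null and 21.5 in WT cytoplasms (2.92). Bcl2l2, another survival gene, had 3.10 in MTR4-null and 0.477 in WT nuclei (1.19), and 15.7 in MTR4-null and 3.11 in WT cytoplasms (2.33). The death-promoting gene Bad had 10.2 in MTR4-null and 1.40 in WT nuclei (1.59), and Bok had 1.91 in MTR4-null and 2.42 in WT nuclei (-1.20). Bcl2l11, which encodes the death-promoting protein BIM, had 22.0 in MTR4-null and 17.4 in WT cytoplasms (1.10). Annotated exons of Bcl2l2, Bad, Plk3, Gadd45a, Ei24, Rchy1, Rrm2b, Ep300, Sirt1 and Cdkn1a overlap other genes. No strand setting is stated, so reads within the shared stretches cannot be told apart.

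**Figure D4:**
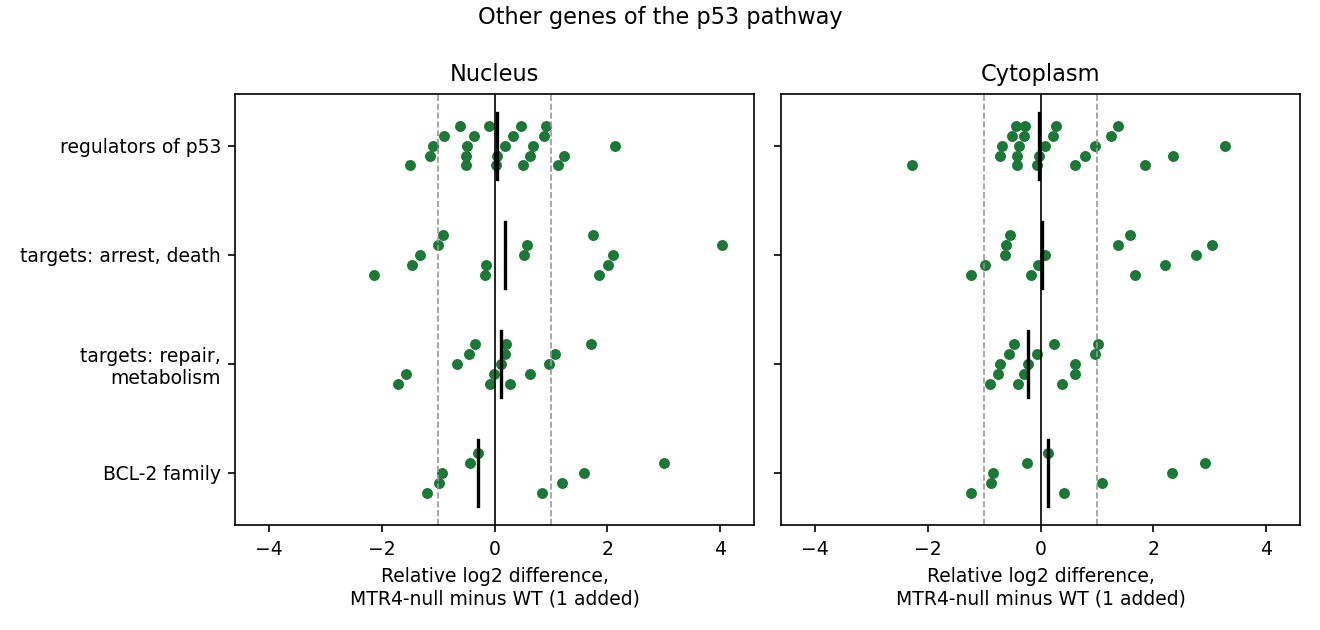
Relative log2 difference, MTR4-null minus WT with 1 added, of the kept genes of 4 lists in the nucleus (left) and the cytoplasm (right); each point is 1 gene, its height within a list is only to keep points apart, black bars are list medians and dashed lines mark 2-fold. Every list held genes on both sides of 0, and its median lay within the 2-fold lines.

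**Figure D5:**
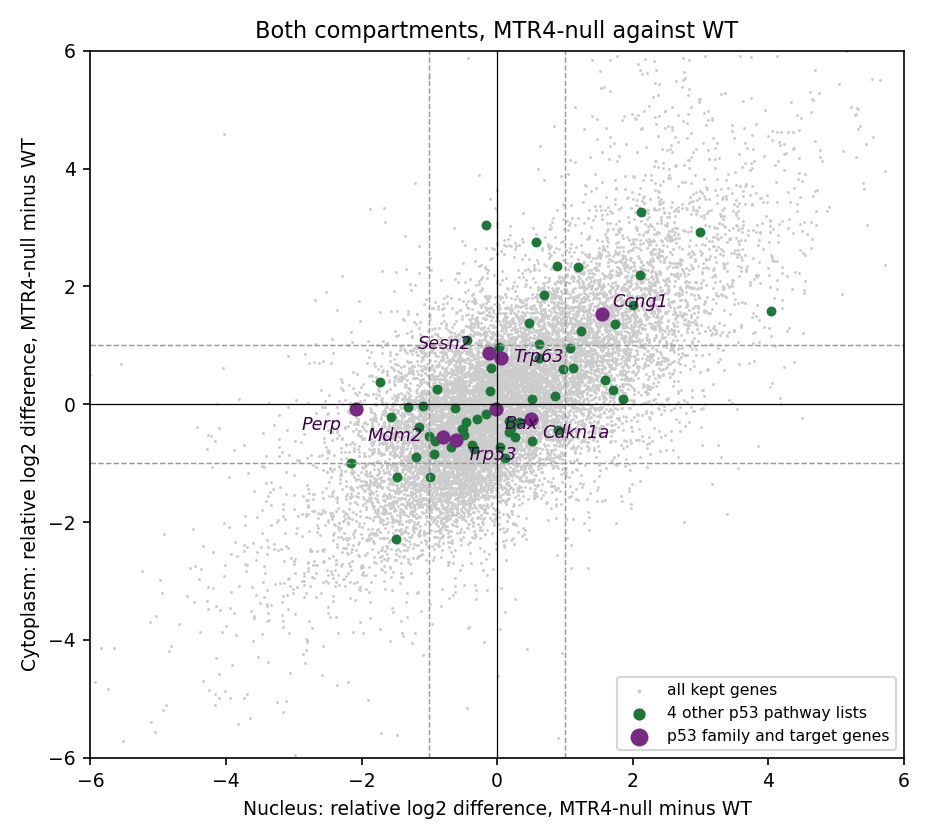
Relative log2 difference, MTR4-null minus WT, in the nucleus (horizontal axis) and the cytoplasm (vertical axis) for all kept genes (grey), the 4 pathway lists (green) and the 8 kept p53 family and target genes (purple, named); dashed lines mark 2-fold, and 128 genes lie beyond the axes. Ccng1 was past 2-fold in both compartments, and Trp53 and Mdm2 lay together below 0 in both.

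Genes with the 4-column pattern nearest to that of Trp53, by Euclidean distance of the centred relative log2 values among 6745 other genes with at least 5 in every column, were Gins3 (0.057), 1810043G02Rik (0.062) and Nlrp4b (0.070). For Mdm2 they were Nin (0.048), 1110003E01Rik (0.063) and Rbm17 (0.063). Trp53 and Mdm2 were 0.47 apart. Close patterns were common over 4 columns, with 764 genes within 0.5 of Trp53 and 1261 within 0.5 of Mdm2.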

How the data were processed

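Smart-seq2 libraries of oocyte nuclei and cytoplasms were made from polyadenylated RNA, per the labels' protocols. TopHat2 2.1.1, Cufflinks 2.2.1 and the build mm9 are named in the submitters' processing notes, without their roles or settings. The deposited values are FPKM by name and were handled as a score, because the 4 columns differ in total. Neither labels nor header state how libraries were combined. A gene was kept where 2 or more columns reached 1 (14240 of 23235). Columns were divided by 0.594 (MTR4-null nucleus), 0.279 (WT nucleus), 1.85 (MTR4-null cytoplasm) and 3.47 (WT cytoplasm), medians taken over kept genes above 0 in all columns. After adding 1, log2 differences were taken, which understates changes of low genes. The limma fit foreseen for library columns could not be made. Calculations used Python 3.11.15 with pandas 2.3.3 and numpy 2.4.6, were tested on simulated data, and plots used matplotlib 3.10.9. Alternatives were 3 other scalings, 2 other added numbers and 2 other filters. The members and lists were chosen with earlier results of these data known. All members, up to 3 list genes in each direction of each genotype comparison (2 in the other comparisons), and the 3 nearest patterns of Trp53 and Mdm2 could be named.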

Additional observations from a re-analysis of the deposited data

How the results depend on the processing

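Counts of members at 2-fold or more, in either direction, depended on the scaling, the number added and the filter. They covered 8 members, but 10 without a filter and 6 with at least 5 in 2 columns, where Cdkn1a and Sesn2 dropped out. Shares of all kept genes were computed only for the main setting and as deposited. The other counts have no share beside them and show only how the members depend on the setting. In the nucleus, MTR4-null against WT, 2 members were counted, against 3 as deposited (3 higher and 0 lower, Perp at -0.95 not among them), 1 with quantile normalization and 1 with 5 added (Ccng1 at 0.99 and 0.85). In the cytoplasm 1 was counted, against 3 as deposited, 2 with columns set to an equal total and 2 with 0.1 added. For nucleus against cytoplasm in MTR4-null oocytes 2 were counted, against 7 as deposited, 4 with equal totals, 4 with quantile normalization, 4 with 0.1 added, 0 with 5 added, 3 without a filter and 1 with at least 5 in 2 columns. In WT oocytes 0 were counted, against 8 as deposited, 1 with quantile normalization, 1 with 0.1 added and 2 without a filter (1 higher and 1 lower). Bbc3, at 1.36 in that comparison with the main divisors, enters only without a filter, and no direction is read from it. For the difference of compartments between genotypes 1 was counted, against 6 as deposited, where Perp was at -0.030, 3 with equal totals and 2 with 0.1 added. Over the rescaled settings, the Ccng1 difference ran from 0.85 to 1.92 in the nucleus and from 1.01 to 1.70 in the cytoplasm, and the Perp difference in the nucleus from -2.74 to -1.07. The Trp53 difference ran from -0.80 to -0.57 in the nucleus and from -0.62 to -0.30 in the cytoplasm, so its sign held over these, though not in the nucleus as deposited. The Cdkn1a difference in the nucleus ran from -0.030 to 0.64, and the Perp difference in the cytoplasm from -0.53 to 0.14, so neither has a settled sign. No paired analysis was possible because the table holds no column for a single library, and for the same reason no library could be left out. Read depth is unknown, which limits every value below 1, among them Perp in the MTR4-null nucleus and Ccng1 and Cdkn1a in the WT nucleus.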
